A study of Mus musculus with 12 samples.

Results

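H3K27ac regions that overlapped H3K9me3 and lacked H3K4me3 were examined in mouse embryonic stem cells. They were selected on the deposited peak calls of the 3 marks, from the authors' peak lists by pooling the peaks of the 4 H3K27ac libraries on chromosomes 1 to 19 and merging those that overlapped by 1 bp or more. A merged region was kept when at least 2 libraries had a peak in it, a peak of at least 1 of the 4 H3K9me3 libraries overlapped it and no peak of the 4 H3K4me3 libraries did. Of 26193 autosomal H3K27ac regions of 2 or more libraries, 778 (2.97%) met this rule and are called dual-mark sites here. A further 12556 regions had neither other mark and serve as the comparison, 12589 had H3K4me3 without H3K9me3 and 270 had both.

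All libraries came from E14TG2a, a male line of mouse embryonic stem cells grown in serum, with the inhibitors CHIR99021 and PD0325901 besides LIF. Wild-type (WT) cells were compared with Alkbh5 del-cIDR cells, in which ALKBH5, the enzyme that removes N6-methyladenosine from RNA, lacks a C-terminal intrinsically disordered region. CUT&Tag was used for H3K27ac and H3K4me3 and CUT&RUN for H3K9me3. These methods use an antibody to direct a transposase or a nuclease to a mark on chromatin. Each mark had 2 libraries per genotype, 12 in all. Whether replicates were separate cultures, and whether the mutant line is a single clone, is not given in the sources used here. A p-value here therefore compares libraries only. It does not measure their spread, which may be technical.

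H3K27ac is laid down by the acetyltransferases CBP and p300 and marks active enhancers and promoters. H3K9me3 is laid down by SETDB1 and the SUV39H enzymes and marks heterochromatin, including silenced transposable elements and the KRAB zinc-finger gene clusters of stem cells. H3K4me3 marks promoters, so regions without it tend to be distal, but no region was placed against genes here. The marks were read in separate libraries of bulk cells, so both marks on the same chromosomes and each mark in different cells or alleles cannot be told apart. A region without a peak is one that did not pass the authors' peak threshold in that library, not one shown to lack the mark.

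H3K9me3 was found at 5.83% of the 13334 H3K27ac regions without H3K4me3 and at 2.10% of the 12859 regions with H3K4me3. The dual-mark sites had a median width of 822.5 bp, from 300 to 3185 bp, against 788 bp for regions with neither other mark. Of the 778 sites, 330 had an H3K27ac peak in all 4 libraries, 210 in 3 and 238 in 2. At the edge of the rule, 631 regions with an H3K27ac peak in a single library met its other conditions and were left out. The member with the least H3K9me3, 13:105052693-105053605, shared 2 bp with it, and 27 members shared under 50 bp. Outside the edge, 34 regions without H3K4me3 lay under 50 bp from H3K9me3, the nearest of them directly beside it. The member nearest to H3K4me3, 3:79873872-79875364, lay 239 bp from it.

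The H3K9me3 at these sites was often seen in few libraries. It was called in a single H3K9me3 library at 325 sites, in 2 at 200, in 3 at 149 and in all 4 at 104. H3K9me3 peaks were present at 195 sites in WT replicate 1, 481 in WT replicate 2, 403 in del-cIDR replicate 1 and 509 in del-cIDR replicate 2. The lists of these libraries held 20895, 41183, 34154 and 37789 autosomal peaks in the same order, so the library with the shortest list also marked the fewest sites. As a share of its list, between 0.943% and 1.34% of the H3K9me3 peaks lay at a dual-mark site.

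**Figure D1:**
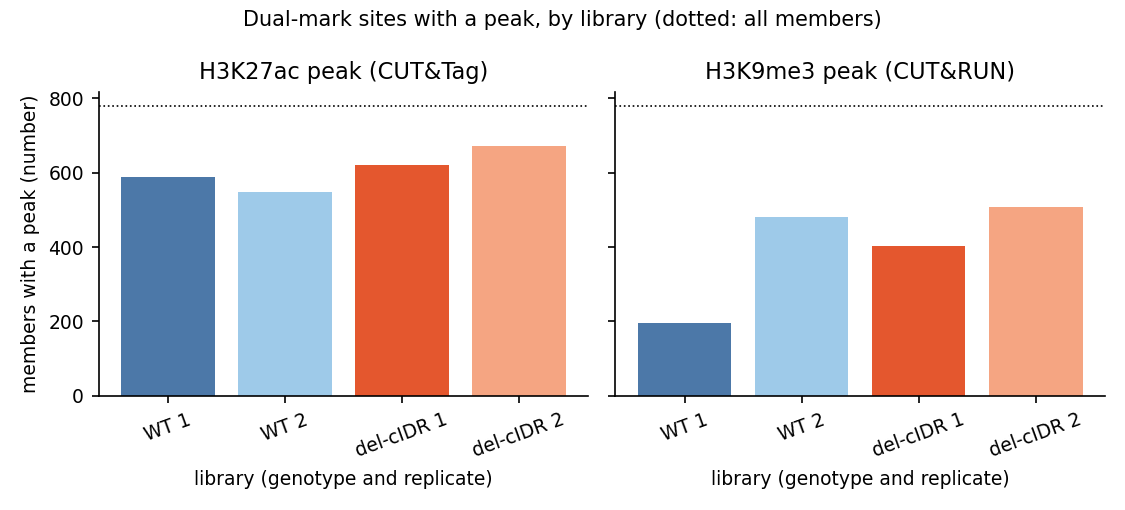
Number of the 778 dual-mark sites with an H3K27ac peak (left) and with an H3K9me3 peak (right) in each library, with the dotted line at all 778. Both del-cIDR bars for H3K27ac (620 and 672) stand above both WT bars (587 and 547), while H3K9me3 WT replicate 1 (195) stands apart from the other 3 H3K9me3 libraries.

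Dual-mark sites carried stronger H3K27ac than regions with neither other mark. Strength was read as the percentile of a region's strongest peak, by fold enrichment, within its own library's list. Fold enrichment is the authors' ratio of signal over the background expected in that library. The median percentile of the dual-mark sites was 61.7 in WT replicate 1, 60.3 in WT replicate 2, 62.5 in del-cIDR replicate 1 and 66.4 in del-cIDR replicate 2. For regions with neither other mark it was 49.5, 46.8, 45.7 and 47.1. The dual-mark sites were therefore higher in 4 of 4 libraries, by 15.5 ± 3.20 percentile points (SD over libraries, n = 4, exact sign-flip permutation test, two-sided p = 0.125, the smallest this test gives for 4 libraries). In fold enrichment the medians were 5.21, 5.35, 5.49 and 5.77 at the dual-mark sites and 4.73, 4.83, 4.76 and 4.81 at regions with neither mark. Percentile 90 of a library's list or above was reached by 11.3% to 15.6% of the dual-mark sites with a peak there and by 6.26% to 7.80% of the regions with neither mark.

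The difference in strength was present among regions detected in equal numbers of libraries. Among regions found in all 4 libraries, the median percentiles of 330 dual-mark sites were 72.9, 70.5, 74.5 and 78.5 and those of 4619 regions with neither mark 62.6, 59.0, 59.0 and 62.0 (WT replicates 1 and 2, then del-cIDR replicates 1 and 2). Among regions found in exactly 2 libraries they were 45.7, 41.1, 40.3 and 51.7 for 238 dual-mark sites and 33.7, 31.3, 33.5 and 35.4 for 5025 others. Against regions with H3K4me3 the order depended on this matching. Over all regions, whatever their number of libraries, those with H3K4me3 had medians of 65.5, 64.4, 68.0 and 71.7, above the dual-mark sites in each library. Among regions found in all 4 libraries they had 71.0, 69.9, 76.0 and 79.5, so that the dual-mark sites were higher in both WT libraries and lower in both del-cIDR libraries. Among regions found in exactly 2 libraries they had 38.3, 34.6, 42.3 and 48.4, and the dual-mark sites were higher in 3 of 4 libraries. Regions with all 3 marks, over all numbers of libraries, had medians of 78.6 to 84.7. The width of the H3K27ac peaks did not separate the classes. Median width at the dual-mark sites was 606, 557, 651 and 671 bp and at regions with neither mark 606, 554, 604 and 590 bp (mean difference 32.8 ± 38.7 bp, SD, n = 4, exact sign-flip permutation test, two-sided p = 0.25). That difference changed sign under 3 of the other settings tried.

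**Figure D2:**
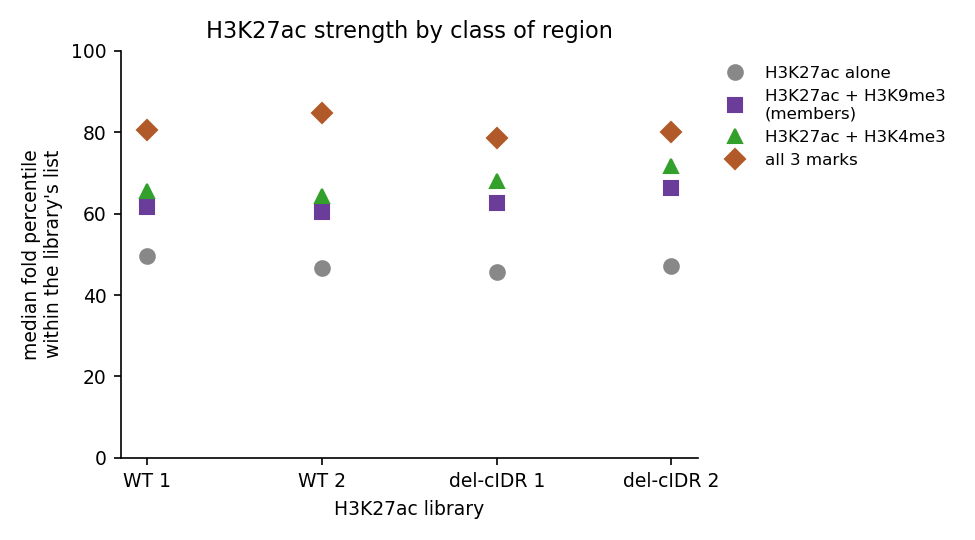
Median percentile of H3K27ac fold enrichment within each library's list (vertical axis) for 4 classes of region in the 4 H3K27ac libraries (horizontal axis), each point the median over the regions with a peak in that library. The dual-mark sites (60.3 to 66.4) lie between regions with H3K27ac alone (45.7 to 49.5) and regions with all 3 marks (78.6 to 84.7) in every library.

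H3K9me3 covered the dual-mark sites to differing degrees. With the peaks of the 4 H3K9me3 libraries pooled and merged, a median of 48.6% of a dual-mark site lay under H3K9me3, with quartiles of 24.3% and 85.4%. H3K9me3 covered the whole site at 136 of the 778, entered from a single side at 482, entered from both sides at 13 and lay entirely inside the H3K27ac region at 147. The longest H3K9me3 region touching a site had a median length of 848.5 bp, against 687 bp for all 56846 merged autosomal H3K9me3 regions. A longer region has more chance to touch a site, and the part of this in the difference was not tested.

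The share of sites under an H3K9me3 peak was highest at the H3K27ac summit in each H3K9me3 library and fell away within a few kb. At the summit of the strongest H3K27ac peak it was 12.6% in WT replicate 1, 28.5% in WT replicate 2, 26.5% in del-cIDR replicate 1 and 36.1% in del-cIDR replicate 2. At 5 kb on either side it was between 0.257% and 2.96%, beside 0.215% to 1.08% at 5 kb from regions with neither mark. Overlap with the region is part of the rule, so some rise towards the middle is built in. For the next comparison the peaks of the 4 H3K9me3 libraries were pooled, and the libraries named are the H3K27ac libraries. In H3K27ac WT replicate 1, 51.3% of the H3K27ac summits at these sites lay under pooled H3K9me3, against 46.4% of the bases of the same peaks. The corresponding shares were 50.9% and 43.9% in WT replicate 2, 54.9% and 46.2% in del-cIDR replicate 1, and 54.8% and 47.5% in del-cIDR replicate 2. Summits thus exceeded bases in 4 of 4 libraries, by 6.97 ± 1.57 percentage points (SD, n = 4). This is given as a description with no test, because the overlap itself was part of the rule.

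**Figure D3:**
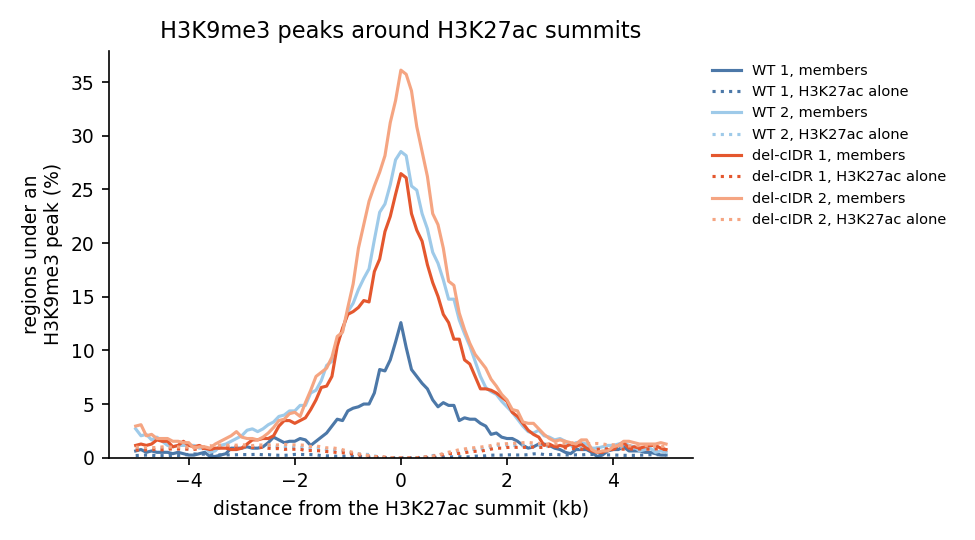
Share of regions lying under an H3K9me3 peak (vertical axis, %) at distances of up to 5 kb from the H3K27ac summit (horizontal axis), in each H3K9me3 library, for the 778 dual-mark sites (solid) and the 12556 regions with H3K27ac alone (dotted). The solid lines peak at the summit, at 12.6% to 36.1%, and the dotted lines are at 0 there because those regions were chosen for having no H3K9me3.

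H3K27ac was called in fewer libraries at sites with more H3K9me3, which is a description over sites with no test. Where H3K9me3 covered up to 25% of the site, 117 of 202 sites (57.9%) had an H3K27ac peak in all 4 libraries, and where it covered over 75%, 64 of 242 (26.4%) did. The groups between, at 25 to 50% and 50 to 75%, had 49.2% and 38.0%. The median width of the regions fell over the same groups from 1012 to 684 bp, and its part in the result was not tested. Median percentile of H3K27ac fold was 61.3 to 69.8 in the group with least cover and 55.4 to 63.0 in the group with most. By number of H3K9me3 libraries, the share of sites with H3K27ac in all 4 libraries was 45.5%, 43.0%, 43.0% and 30.8% for 1, 2, 3 and 4 libraries. H3K27ac peaks at the 104 sites with H3K9me3 in all 4 libraries had median widths of 463.5 to 562 bp and at the 325 sites with a single H3K9me3 library 571 to 677 bp. Their median percentiles overlapped, at 59.6 to 66.5 and 60.5 to 66.5.

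Viewed from the H3K9me3 side the strength of the peaks depended on the library and on the settings. The median fold percentile of H3K9me3 peaks at dual-mark sites was 60.5 in WT replicate 1, 48.0 in WT replicate 2, 49.96 in del-cIDR replicate 1 and 49.0 in del-cIDR replicate 2, each against about 50 for the other peaks of its list. The mean difference was 1.87 ± 5.86 percentile points (SD, n = 4, exact sign-flip permutation test, two-sided p = 1) and rested on WT replicate 1, whose list is the shortest. Without that library it was -1.03, and without H3K27ac del-cIDR replicate 2 it was -0.181. It was 4.21 with lists of equal length, 4.93 for sites with H3K9me3 in at least 2 libraries and 5.31 for sites with at least 50% cover, each with an exact sign-flip permutation p of 0.125, the smallest possible. Median fold was 3.81, 3.44, 3.52 and 3.47 in the same order.

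The strongest sites were picked among the 330 dual-mark sites with H3K27ac in all 4 libraries. The first of them was 9:35216540-35216887, a narrow region with H3K27ac folds of 26.1, 27.2, 21.0 and 24.3 and H3K9me3 folds of 25.2, 24.3, 24.3 and 24.4 (here and in the following sites WT replicates 1 and 2, then del-cIDR replicates 1 and 2). Its mean percentile was 99.99 for H3K27ac and 99.98 for H3K9me3. H3K27ac fold was higher in both WT libraries than in both del-cIDR libraries, and the H3K9me3 folds of the genotypes overlapped. Similar in form was 9:3000343-3000653, near the centromeric end of chromosome 9, with H3K27ac folds of 13.2, 13.8, 11.8 and 13.6 and H3K9me3 folds of 6.46, 5.88, 6.14 and 5.74. Any control library is not given, and no region was left out here for high signal in every library. A technical origin of the folds at both sites was not tested. The second strongest site, 13:9061744-9062204, had H3K27ac folds of 22.0, 22.2, 19.97 and 20.9 but H3K9me3 in WT replicate 1 alone, with a fold of 5.63. At 4:146433382-146434143 the H3K27ac folds were 16.1, 15.0, 15.2 and 13.7 and H3K9me3 was present in all 4 libraries at the modest folds of 4.04, 3.21, 3.79 and 3.41. All 4 libraries had H3K27ac at these sites by the way they were picked. The sites differed in how much H3K9me3 they carried.

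The remaining 8 of the 12 strongest sites among those found in all 4 libraries had mean H3K27ac percentiles of 97.2 to 99.1. Sites found in fewer libraries were not ranked with them. At 13:66970950-66972458 folds of 12.1, 10.1, 10.3 and 16.3 for H3K27ac stood beside 5.67, 5.49, 4.97 and 6.03 for H3K9me3. At 9:123721461-123721944 they were 9.22, 8.99, 10.9 and 11.0 beside 6.81, 7.29, 7.29 and 7.08, and H3K9me3 covered 98.6% of the region. At 8:5525802-5526327 both marks were higher in both del-cIDR libraries than in both WT libraries, with H3K27ac folds of 8.64, 9.84, 13.5 and 14.6 and H3K9me3 folds of 3.38, 3.13, 3.996 and 4.06. At 8:20003992-20004463 H3K27ac folds were 9.10, 9.21, 9.39 and 10.4 and H3K9me3 folds 5.07, 4.63 and 4.50, with no H3K9me3 peak in del-cIDR replicate 2. The other 4 were 13:62329525-62330878, 13:66562748-66564175, 3:98641149-98642515 and 6:47270902-47271818, and of these H3K9me3 was present in all 4 libraries at the last.

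H3K27ac at the sites with the strongest H3K9me3 took several forms. Of the 6 with the highest H3K9me3 percentile among sites marked in all 4 H3K9me3 libraries, 9:35216540-35216887 and 8:20692487-20692970 had H3K27ac in all 4, beside 32 of the 104 sites (30.8%) they were picked from. At 3:23328606-23329134 H3K27ac was called in both del-cIDR libraries but not in WT. At 4:147501860-147502437 H3K9me3 folds were 9.21, 12.6, 12.8 and 12.3, with H3K27ac in WT replicate 1 at a fold of 4.63 and in del-cIDR replicate 2 at 8.10. At 8:20010004-20010453 H3K9me3 folds were 8.14, 9.35, 7.47 and 8.52, and H3K27ac was called at folds of 8.09, 5.16 and 6.71 with no peak in del-cIDR replicate 2. At 17:13703397-13703773 H3K9me3 folds were 7.66, 8.16, 7.48 and 8.87, and H3K27ac was absent from the list of WT replicate 2. At these last 3 of the 6 sites H3K27ac was called in only 1 replicate of at least 1 genotype.

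The widest sites were of another kind. Width was averaged over the 4 H3K27ac libraries, and a library without a peak added no width, which favours sites found in all 4. The 6 with the widest H3K27ac all had a peak in the 4 libraries, beside 330 of all 778 sites (42.4%). H3K9me3 lay over 5.84% to 20.6% of the region at these 6 and was called in 1 to 3 libraries. The widest, 5:121031306-121033910, held 2529, 2538, 2389 and 2577 bp under H3K27ac peaks at folds of only 4.37, 4.16, 4.61 and 4.87. At 9:121442486-121445670 the widths were 2129, 2122, 1581 and 2718 bp and H3K9me3 was called in del-cIDR replicate 1 alone. At 16:20678725-20681010 the H3K27ac widths were 2207, 2147, 2146 and 2197 bp, and a single H3K9me3 library, del-cIDR replicate 2, had a peak.

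Dual-mark sites lay farther from H3K4me3 than H3K27ac regions with neither other mark. Their median distance to the nearest H3K4me3 peak was 38.4 kb, against 18.0 kb for regions with neither mark. Within 10 kb of H3K4me3 lay 181 of 778 (23.3%) and 4309 of 12556 (34.3%), and within 100 kb 70.1% and 87.1%. Regions are not replicates and the distance is the same for every library, so no test was made. Restricting both classes to regions over 10 kb from H3K4me3 left the difference in H3K27ac percentile at 12.3 points.

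The sites were scattered singly over the autosomes with a few dense groups. They fell in 590 windows of 1 Mb, and 482 of these held a single site. The 5 densest windows held 58 sites (7.46%) but 59 of the 12556 regions with neither mark (0.470%), whose own 5 densest windows held 1.25%. The densest window, at 62 to 63 Mb of chromosome 13, held 13 sites among 25 H3K27ac regions without H3K4me3. The windows at 146 to 147 and 147 to 148 Mb of chromosome 4 held 12 of 24 and 11 of 20, the window at 20 to 21 Mb of chromosome 8 held 11 of 17, and that at 66 to 67 Mb of chromosome 13 held 11 of 31. Distal chromosome 4 and chromosome 13 are known for clusters of KRAB zinc-finger genes, but no annotation of this genome build was used, so the windows were not assigned to genes.

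H3K27ac was strong, where it was called, at the sites in these windows. Their median percentile was 72.8, 74.4, 81.2 and 79.2 (WT replicates 1 and 2, then del-cIDR replicates 1 and 2), against 60.8, 59.3, 62.1 and 65.7 for the 720 sites elsewhere. H3K27ac was called in all 4 libraries at 21 of the 58 sites (36.2%) and at 309 of the 720 elsewhere (42.9%). Median distance to H3K4me3 was 13.1 kb for the 58 sites and 44.0 kb elsewhere. H3K9me3 was called in all 4 libraries at 24 of the 58 sites (41.4%) and at 80 of the 720 elsewhere (11.1%). Without the 5 windows the difference in H3K27ac percentile from regions with neither mark was 14.8 points. Across chromosomes the dual-mark share of H3K27ac regions without H3K4me3 ran from 3.79% on chromosome 11 to 8.62% on chromosome 13.

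**Figure D4:**
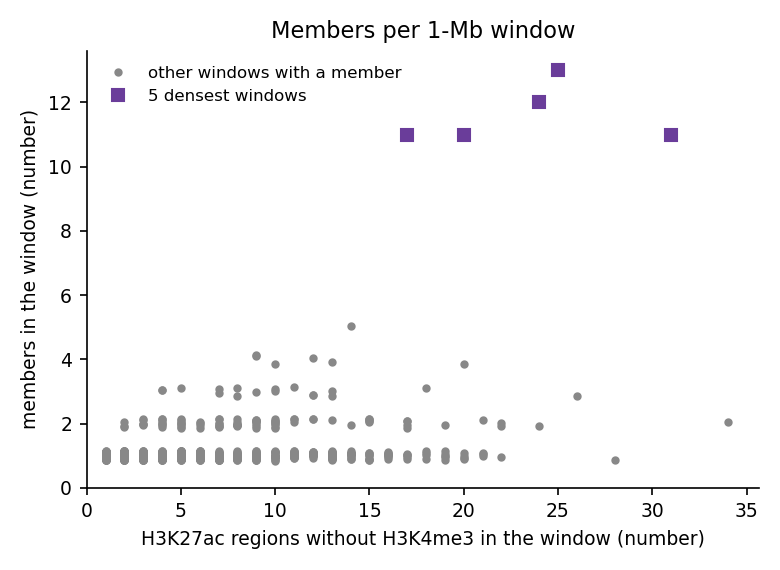
Number of dual-mark sites (vertical axis) against the number of H3K27ac regions without H3K4me3 (horizontal axis) in each of the 590 autosomal 1-Mb windows with at least 1 site. Grey points are moved slightly up or down so that they can be told apart. The 5 densest windows (squares) hold 11 to 13 sites and the others at most 5.

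The window at 20 to 21 Mb of chromosome 8 was uneven between genotypes. It held 54 and 52 H3K9me3 peaks in the WT libraries and 36 and 35 in the del-cIDR libraries, and 5 and 7 of its 11 sites had H3K27ac in WT against 9 and 10 in del-cIDR. Of the 11 sites, 3 had H3K27ac in both del-cIDR libraries but in no WT library and 0 had the reverse. Over all 778 sites the shares were 10.3% and 5.27%, and over all 26193 regions 11.6% and 3.47%. With 11 sites these counts cannot be told from those shares. This window was picked out after its values were seen and has no test. Chromosome 8 as a whole held 49 sites, with H3K27ac at 40 and 33 in WT and 36 and 41 in del-cIDR, so the genotypes overlapped there.

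More dual-mark sites had an H3K27ac peak in del-cIDR than in WT, as did other regions. The rule chose the sites by the presence of these same H3K27ac and H3K9me3 peaks, without regard to genotype. It took in 80 sites with H3K27ac in del-cIDR only and 41 in WT only. The p-values for these counts therefore give no support to a difference, and the counts are descriptions. WT libraries had a peak at 567 ± 28.3 sites and del-cIDR libraries at 646 ± 36.8 (SD, 2 libraries each, 1.14-fold, two-sided exact permutation p = 0.333, the smallest for 2 against 2). The difference of 79 sites was 10.5 without H3K27ac del-cIDR replicate 2, 45.5 without del-cIDR replicate 1 and 17 with all lists cut to equal length. The H3K27ac lists held 25153 and 22810 autosomal peaks in WT and 27883 and 32353 in del-cIDR, and the part of list length in the difference was not tested further. For regions with neither mark the numbers were 8551 ± 543 in WT and 10080 ± 553 in del-cIDR, a ratio of 1.18. H3K9me3 peaks were present at 338 ± 202 sites in WT and 456 ± 74.95 in del-cIDR (SD, 2 libraries each, two-sided exact permutation p = 0.667). That difference of 118 sites was -25 without H3K9me3 WT replicate 1, 261 without WT replicate 2, 65 without del-cIDR replicate 2 and 24 with lists of equal length.

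H3K27ac and H3K9me3 seen in a single genotype were counted beside the same pattern over all regions. The rule asks for 2 H3K27ac libraries and 1 H3K9me3 library, so these counts are descriptions. H3K27ac was called in both del-cIDR libraries but in no WT library at 80 sites (10.3%), where 11.6% of all 26193 regions showed that pattern and 14.1% of those with neither mark. It was called in both WT libraries but in no del-cIDR library at 41 sites (5.27%), where 3.47% of all regions did and 5.58% of those with neither mark. With lists of equal length the counts were 39 in del-cIDR only and 38 in WT only. With a minimum −log10 q of 5 for H3K27ac they were 74 and 15. H3K9me3 was called in both del-cIDR libraries but in no WT library at 65 sites (8.35%) and the reverse at 12 (1.54%), against 4.12% and 0.996% of all 56846 H3K9me3 regions. The sites are H3K27ac regions, which can touch several H3K9me3 regions, so these shares are of unlike units. Sites with both patterns were counted beside the shares over all 778 sites, 8.35% and 1.54% for H3K9me3 in del-cIDR only and in WT only. A link between the patterns of the marks was not tested. Of the 80 sites with H3K27ac in del-cIDR only, 7 had H3K9me3 in del-cIDR only and 3 in WT only. Of the 41 with H3K27ac in WT only, 2 had H3K9me3 in WT only and 6 in del-cIDR only.

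The strongest site with H3K27ac in del-cIDR only, 8:20137819-20138525, had H3K27ac folds of 8.98 and 9.03 there and H3K9me3 folds of 6.05, 5.87, 5.64 and 5.73 in the 4 libraries. The next, 8:20051643-20052107, had H3K27ac folds of 8.39 and 9.72 in del-cIDR and H3K9me3 folds of 4.20 and 5.08 in WT with no peak in del-cIDR. At 3:23328606-23329134 H3K27ac folds were 7.74 and 8.65, and H3K9me3 was strong in all 4 libraries with folds of 7.33, 7.69, 8.40 and 6.90. At 7:50163190-50163959 both marks were called in del-cIDR alone, with H3K27ac folds of 7.23 and 7.35 and H3K9me3 folds of 3.89 and 4.17. H3K9me3 at these sites thus followed no single pattern.

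In WT the leading site was 2:39427105-39427608, with H3K27ac folds of 6.80 and 7.70 and H3K9me3 in WT replicate 2 alone at a fold of 2.90. Over all sites of each kind, the median of the mean percentile was 46.7 for the 41 in WT only and 49.4 for the 80 in del-cIDR only. At 1:186919526-186920051 H3K27ac folds of 4.56 and 6.94 went with H3K9me3 folds of 3.98 in WT replicate 2 and 3.92 in del-cIDR replicate 2. At 11:118199084-118199872 H3K27ac folds were 4.86 and 6.54 in WT and H3K9me3 folds 3.33 and 3.18 in del-cIDR, with no H3K9me3 peak in WT. Among the 6 leading WT sites H3K9me3 was called in 1 or 2 libraries each.

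Where dual-mark sites were found in all 4 libraries, their H3K27ac ranks overlapped between the genotypes. Ranked by fold among the 13094 regions present in all 4 libraries, the median rank of the 330 sites, as a percentile, was 56.0 and 54.9 in WT and 54.6 and 56.2 in del-cIDR, and the groups overlapped. Regions with neither mark ranked at 42.3 and 41.2 in WT and lower in del-cIDR, at 35.8 and 34.0. The gap between the classes was 13.7 ± 0.0297 in WT and 20.5 ± 2.44 in del-cIDR (SD, 2 libraries each, two-sided exact permutation p = 0.333, the smallest possible). This difference of 6.78 ran from 4.84 to 11.8 under the other settings tried, the highest with lists of equal length. Ranks within a fixed set balance, and regions with H3K4me3 ranked at 53.2 and 54.1 in WT and at 56.9 and 58.1 in del-cIDR. Single sites moved both ways: 69 ranked higher in both del-cIDR libraries than in both WT libraries (20.9%, against 19.7% of all regions present in all 4) and 76 lower (23.0%, against 20.4%). These shares are close to the background.

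**Figure D5:**
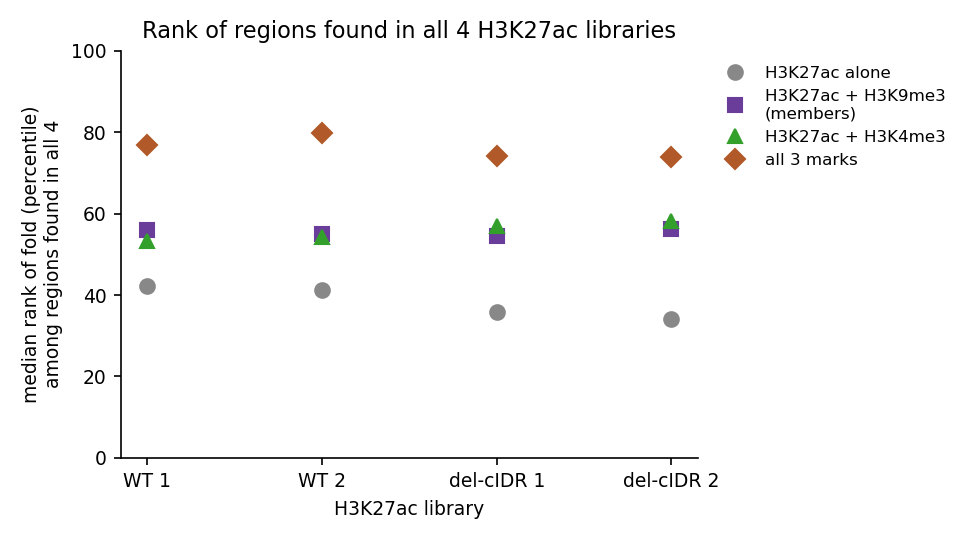
Median rank of H3K27ac fold, as a percentile among the 13094 regions found in all 4 H3K27ac libraries (vertical axis), for 4 classes of region in each library (horizontal axis). The dual-mark sites stay between 54.6 and 56.2, while regions with H3K27ac alone go from 41.2 to 42.3 in WT to 34.0 to 35.8 in del-cIDR.

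The 4 sites with the largest rise in rank and the 4 with the largest fall were named after their values were seen and have no test. The largest rise was at 4:126255696-126256931, where H3K27ac folds were 3.54 and 4.35 in WT and 7.19 and 6.62 in del-cIDR, and H3K9me3 covered the whole region. At 9:4192344-4193436 they were 4.74 and 5.39 in WT and 8.25 and 7.95 in del-cIDR. The largest fall was at 7:143190088-143191117, with H3K27ac folds of 6.78 and 7.001 in WT and 4.20 and 4.59 in del-cIDR. There H3K9me3 was present in all 4 libraries, with folds of 3.75 and 3.50 in WT and 4.28 and 4.29 in del-cIDR, so that both libraries of each genotype stood on opposite sides for both marks. At 15:19377489-19378170 the H3K27ac folds were 8.35 and 7.42 in WT and 5.21 and 5.61 in del-cIDR, with H3K9me3 in WT replicate 2 alone.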

How the data were processed

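Peak lists of 12 libraries were used. The submitters' processing notes name MACS2, BWA, fastp, featureCounts, Picard and SAMtools and the build GRCm39. Tool versions, settings and any control library: not given in the sources used here. The authors deposited 1 list per library, with a fold (a ratio over that library's expected background), the −log10 of the p-value and q-value, a browser score (not used) and, in narrow peaks, the summit position. The lists hold no read counts, so depth is unknown and no counting interval could be given. Deeper sequencing or lower background can lengthen a list. The weakest peaks had a −log10 q of 1.30 (H3K27ac) and 1.00 (H3K9me3).

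Fold was ranked within each autosomal list. Libraries were the units of every test, with exact permutation tests of 2 against 2 and exact sign-flip permutation tests over 4 libraries. Regions are not replicates. The interval code was checked on simulated data. Python 3.11.15, numpy 2.4.6 and pandas 2.3.3 were used. Coordinates refer to GRCm39, counted from 1. The gene and promoter tables at hand are of another build, so no gene, marker gene or sequence was assigned, and the planned gene lists were not used. Named by rule were the 12 strongest sites, 6 per genotype, the 6 with strongest H3K9me3, the 6 widest and the 5 densest windows. The 12 were taken only from sites with H3K27ac in all 4 libraries. Members and lists were chosen with earlier results of these data known.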

Additional observations from a re-analysis of the deposited data

Results flagged for a closer look

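Regions on the X chromosome were outside the rule. There 21 of 400 H3K27ac regions of 2 or more libraries without H3K4me3 overlapped H3K9me3. They had an H3K27ac peak at 7 and 12 regions in the WT libraries (mean 9.5) and at 17 and 19 in the del-cIDR libraries (mean 18), which is above the level in WT and is why they are listed here. H3K9me3 was called at 6 and 9 of the 21 in WT and at 14 and 15 in del-cIDR. Of the 379 such X regions without H3K9me3, 222 and 193 had an H3K27ac peak in WT and 340 and 350 in del-cIDR, so these too were higher in del-cIDR. On the Y chromosome 5 of 8 regions overlapped H3K9me3, with H3K27ac at 4 and 3 in WT and at 2 and 4 in del-cIDR, and the genotypes overlapped. The differences were not tested.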

How the results depend on the processing

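The higher H3K27ac percentile of dual-mark sites kept its direction under 18 other settings, at 9.30 to 16.1 points. The ratio of distances to H3K4me3 stayed between 1.75 and 2.43. The difference in peak width turned to -16.1 bp with a minimum −log10 q of 5, -8.38 bp with lists of equal length and -57.8 bp where H3K9me3 covered at least 50% of the region. The number of sites was 436 with that minimum q, 420 with equal lists, 379 with 50% cover and 453 with H3K9me3 in at least 2 libraries. Sites with H3K27ac in del-cIDR only numbered 39 with equal lists, 46 with 50% cover and 49 with at least 2 H3K9me3 libraries. Sites in WT only numbered 38 with equal lists, close to the 39 in del-cIDR only at that setting. They numbered 15 with the minimum q, 25 with 50% cover and 27 without chromosomes 6, 8 and 12. The cause was not tested.

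Leaving out each library in turn gave 604 to 756 sites, 66 to 160 in del-cIDR only (160 without H3K27ac WT replicate 1, 141 without WT replicate 2), and 36 to 78 in WT only (66 and 78 without del-cIDR replicates 1 and 2). Counts for the genotype that lost the library could not be obtained. It gave differences of 10.5 to 106 sites with H3K27ac, -25 to 261 sites with H3K9me3 and -1.03 to 3.19 points for H3K9me3 percentile, which was -0.181 without H3K27ac del-cIDR replicate 2. Over all settings that percentile difference reached 5.31. With lists of equal length it was 4.21 and the difference in sites with H3K9me3 was 24. With the replicate number as a block the differences remained 79 and 118 sites, with p = 0.5 by an exact permutation test, the smallest for 2 pairs. The rule used these same peaks, so this p-value gives no support to a difference. Differences between H3K27ac replicates showed almost no correlation between the genotypes (r = -0.024 over 330 sites and 0.006 over 13094 regions). This cannot tell whether libraries of the same replicate number shared a culture or batch, and H3K9me3 was not examined in this way. Depth is unknown, so a missing peak cannot be told from a shallow library. Settings requiring H3K27ac in all 4 libraries, distance over 10 kb from H3K4me3 or leaving out the dense windows were added after seeing the data.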
